A study of Mus musculus with 5 samples.

Results

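RNA-rich barcodes almost without the nuclear transcript Malat1 were described in 3 single-cell RNA-seq libraries of 7-day mouse salivary gland organoids (mSGOs). A barcode is the tag of one droplet and normally stands for one cell, and a unique molecular identifier (UMI) marks one captured RNA molecule. Members were barcodes with at least 2000 UMIs, a mitochondrial (mt-) UMI share of at most 5% and a Malat1 UMI share under 0.5%. They numbered 4508 of the 44975 barcodes of the 7-day libraries and of 72788 in the whole series, with 1036 in the control, 1744 in the photon and 1728 in the proton library. The comparison class comprised the barcodes of the same libraries with at least 2000 UMIs, a Malat1 share of at least 1% and the same mt- limit, which were 875, 1200 and 1146 barcodes.

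All mSGOs were grown in Matrigel from submandibular gland cells of female C57BL/6 mice aged 8 to 12 weeks, in WRY medium, which contains Wnt3a, R-spondin1 and Y27632. Cultures of 4 animals were used, and the labels do not tie a barcode to an animal. Control mSGOs were not irradiated, whereas photon and proton mSGOs received 7 Gy on day 5, and the 3 groups were collected on day 7 on the same day. From each group, 45000 cells that excluded propidium iodide were sorted and loaded, giving 1 library a group. With 1 library a group, and with members chosen on the same counts that are described, no difference was tested, and all intervals are 95% intervals for counting error only.

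Malat1 is an abundant long non-coding RNA that stays in the nucleus, in bodies called speckles where splicing factors gather. Its share is therefore widely read as a sign that a droplet held nuclear RNA. The mt- genes are transcribed inside mitochondria, whereas ribosomal protein mRNAs and most short housekeeping mRNAs are found in the cytoplasm. A barcode rich in cytoplasmic mRNA and poor in both nuclear and mitochondrial RNA is thus an unusual unit of single-cell data.

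Malat1 was low, but not absent, in the members. It made up 0.0478% of the summed UMIs of control, 0.108% of photon and 0.0646% of proton members, against 4.78%, 6.35% and 7.23% in the comparison class. No Malat1 UMI was found in 156 control, 107 photon and 281 proton members. These values restate the rule. Few barcodes lay near it, since 13 members had a share of 0.4 to 0.5% and 10 other barcodes one of 0.5 to 0.6%, and only 36, 21 and 18 barcodes of the 3 libraries fell between both classes. The UMI limit was less clear, with 446 members at 2000 to 2200 UMIs and 346 barcodes that met the other conditions at 1800 to 2000. Only 3 barcodes failed by the mt- limit alone.

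Members were the larger class among the RNA-rich barcodes of every 7-day library. They were 53.2% (95% interval 51.0 to 55.4) of the 1947 control barcodes with at least 2000 UMIs and a permitted mt- share, 58.8% (57.0 to 60.6) of 2965 photon barcodes and 59.8% (57.9 to 61.5) of 2892 proton barcodes. The irradiated shares were above the control share, and the photon and proton intervals overlapped. This order did not hold at a UMI limit of 3000, where the shares were 53.3%, 40.6% and 45.4%, nor with a Malat1 share under 0.1% (48.2%, 29.7% and 47.1%), and at 2000 to 4000 UMIs the gap was wider (63.3%, 80.6% and 83.3%). The median member held 4880.5 UMIs and 1290.5 genes in the control, 2751 and 960 in the photon, and 2973 and 1023 in the proton library. In the comparison class these medians were 6705 UMIs and 1787 genes, 5891.5 and 1672, and 6174 and 1755.5. Members held 31.4%, 17.0% and 19.1% of all UMIs of their libraries. At least 2500 genes were detected in only 5, 0 and 3 members, against 185, 243 and 213 barcodes of the comparison class. The paper states that cells below 2500 features were left out of its own data. Most barcodes of both classes described here are below that stated limit.

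**Figure D1:**
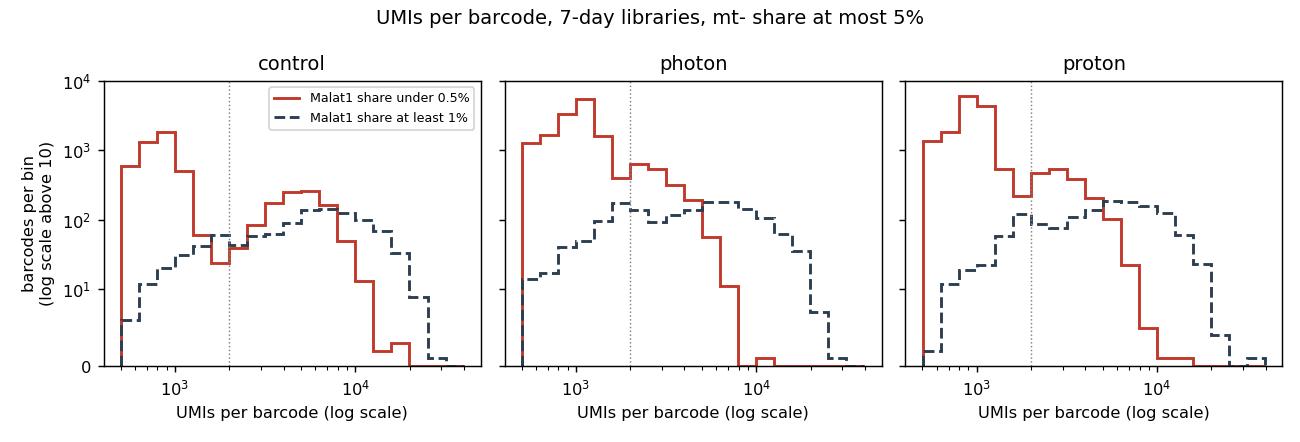
UMIs per barcode (horizontal, log scale) against the number of barcodes per bin (vertical, log scale above 10) in each 7-day library, for barcodes with a Malat1 share under 0.5% (solid) and of at least 1% (dashed); the dotted line marks 2000 UMIs. Barcodes low in Malat1 formed 2 groups in each library, one near 1000 UMIs and one above the line, which was the wider apart in the control.

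The low-Malat1 barcodes were split by depth into 2 groups. In the control, their number fell from 509 at 1000 to 1259 UMIs to 24 at 1585 to 1995 and rose again to 259 at 5012 to 6310 UMIs. In the photon library the second group peaked lower, with 632 barcodes at 1995 to 2512 UMIs after 406 in the bin before, and in the proton library with 538 at 2512 to 3162 UMIs after 218 at 1585 to 1995. The control members were therefore well separated from shallower barcodes, whereas the irradiated members began close to the limit. Above 8000 UMIs, members were 15.9% of control barcodes and 0.279% and 1.86% of photon and proton barcodes. The same rule found 24 of 9367 RNA-rich barcodes (0.256%) in untreated 11-day mSGOs. In freshly isolated gland tissue it found 1006 of 1169, but these held a median of only 258.5 genes, and they are not compared further.

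Doublets, which are droplets with more than one cell, were scored with Scrublet but kept. They were called in 28 control (2.70%), 289 photon (16.6%) and 120 proton members (6.94%), and in 11, 16 and 3 barcodes of the comparison class. Over all barcodes scored, 5.50%, 14.6% and 10.1% were called. The control and photon rates were preset by the expected rate, so the libraries cannot be compared by these calls. Barcode sequences shared between 7-day libraries numbered 33 for control and photon, 40 for control and proton, and 98 for photon and proton, and 2 of the latter were members in both libraries. Their part in the results was not tested beyond leaving them out, which changed no count of called genes by over 1.5 times.

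The mitochondrially encoded RNAs were low in the members as well, well inside the limit that the rule sets. Their share of UMIs was 0.601%, 0.502% and 0.560% in control, photon and proton members, against 1.34%, 1.76% and 1.74% in the comparison class. All 13 mt- genes were lower in the members in each library. mt-Co1, a subunit of cytochrome c oxidase and the most abundant of them, stood at 2090, 1720 and 1977 CPM (UMIs of a gene scaled to a total of 1000000 UMIs) in members and at 4310, 5475 and 5544 CPM in the comparison class. The widest gaps were those of mt-Nd4l, a complex I subunit, with log2 ratios of members to comparison class of -3.86, -4.08 and -3.75, and of mt-Nd6, with -4.09, -3.81 and -3.65.

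To describe the remaining genes, UMIs were summed over the barcodes of a class and scaled to CPM, and the log2 ratio was taken with a pseudocount of 1 CPM. Of 4361 genes measured deeply enough, 1131 (25.9%) were at least 2-fold lower in the members in all 3 libraries, and 4 (0.0917%) were at least 2-fold higher. The rule used this contrast, so these are descriptions. The median gene had a ratio of -0.40 in the control, -0.28 in the photon and -0.24 in the proton library, and ratios below are given on the CPM scale without removing this shift. After removing it, 815 genes were lower and 42 higher. In barcodes of 2000 to 4000 UMIs only, 371 of 2287 genes were at least 2-fold lower and 22 higher, and the median ratios were 0.05, 0.22 and 0.27. A summed profile does not tell fewer barcodes with an RNA from less of that RNA per barcode.

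Other nuclear RNAs followed Malat1. Neat1, the long non-coding RNA on which nuclear paraspeckles are built, stood at 16.8 CPM in control, 22.2 in photon and 17.1 in proton members, against 994, 963 and 859 CPM in the comparison class. It was 48.0-fold lower on average, with log2 ratios of -5.81, -5.37 and -5.57. At least one Neat1 UMI was found in 7.72%, 6.54% and 5.09% of members and in 94.4%, 91.9% and 90.5% of comparison barcodes. Xist, which coats the inactive X chromosome, stood at 11.1, 14.8 and 13.0 CPM in members and at 479, 534 and 532 CPM in the comparison class, 37.1-fold lower on average. Kcnq1ot1, an imprinted non-coding RNA that acts on chromatin, rested on 23, 11 and 10 UMIs in the members and on 489, 755 and 542 in the comparison class.

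In the GENCODE vM39 annotation of GRCm39, Malat1 lies at chr19:5845717-5853602 and Neat1 beside it at chr19:5874736-5897132, both on the minus strand, and Xist lies at chrX:102503972-102537573 on the minus strand. The processing notes name mm10 and the methods GRCm39, so the counts may rest on other gene models than these positions. Of the 16 listed nuclear retained transcripts other than Malat1, only 4 (Neat1, Xist, Kcnq1ot1 and Tug1) passed the minimum counts, and all 4 were at least 2-fold lower in the members of each library. The CPM minimum applied only to the higher class, so these 4 passed through the comparison class. That all 4 were lower was thus largely set by the filter and the rule.

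Messenger RNAs of nuclear proteins were also low. Long mRNAs in general were lower in members (below), and these lists were not matched to other genes by transcript length. All 22 splicing and nuclear speckle factors were lower in the members of each library, against 55.4% of all genes tested. At least 2-fold lower were 17, against 25.9% of all genes. Their median ratio was -2.26, -2.0 and -2.17. Rbm25, which encodes a splicing regulator, had 10.9, 18.8 and 19.2 CPM in members and 152, 177 and 177 CPM in the comparison class. Srrm2, which encodes a scaffold protein of speckles, had 103, 109 and 82.6 CPM against 470, 457 and 448 CPM. Of 20 chromatin and nuclear structure genes tested, 18 were lower in each library and 14 at least 2-fold lower, against the same 55.4% and 25.9%. Their medians were -2.26, -1.67 and -1.68. Atrx, a chromatin remodeler, had log2 ratios of -3.58, -2.84 and -2.60, while Lmna, which encodes nuclear lamins A and C, had 0.03, 0.04 and 0.28. Besides Neat1, Xist and Kcnq1ot1, the 10 lowest genes comprised Nktr, Rbm25, Alkbh1, Prpf4b, Fubp1, Cspp1 and Krit1, with ratios between -2.92 and -3.69 in single libraries. They encode mostly RNA-binding and splicing-related proteins, with the exceptions of the DNA and RNA demethylase Alkbh1, the centrosomal Cspp1 and the junction protein Krit1.

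**Figure D2:**
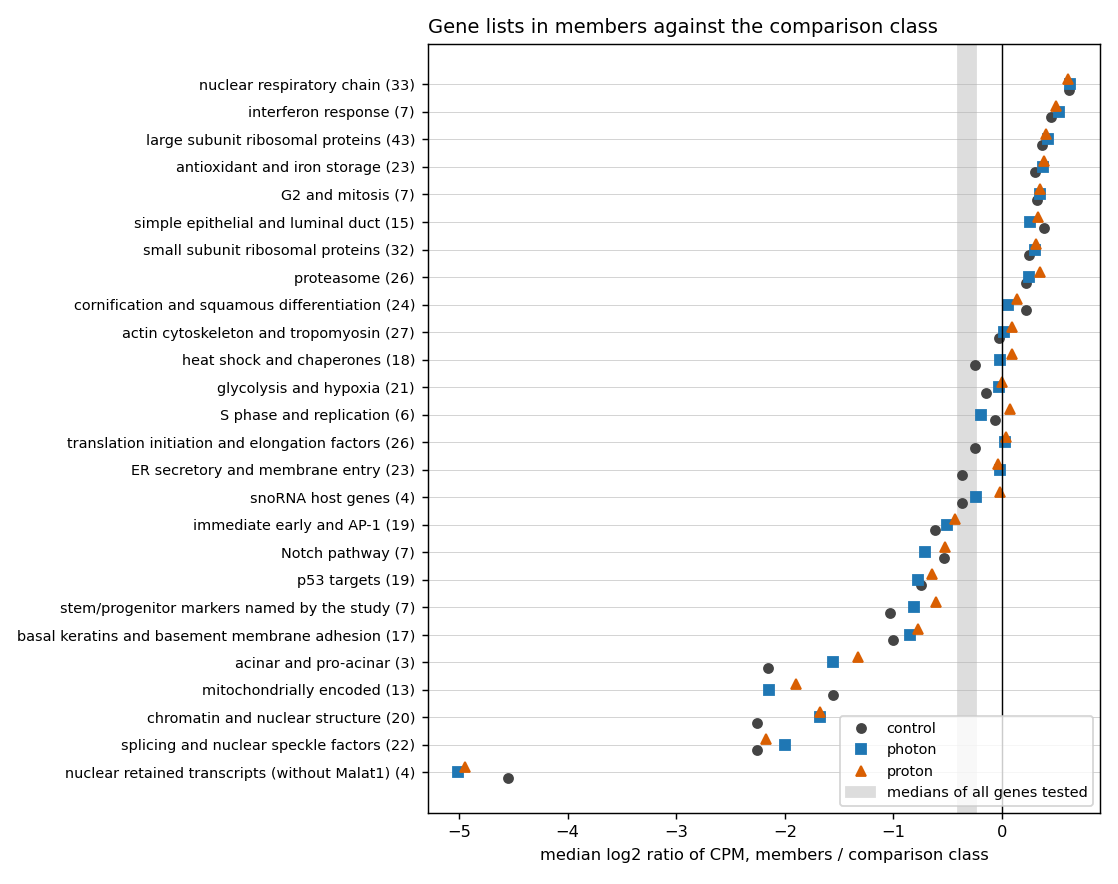
Median log2 ratio of CPM, members over comparison class (horizontal), for the gene lists with at least 3 genes tested (vertical, number tested in brackets), with one symbol per library and the range of the 3 medians of all genes as a gray band. Nuclear retained transcripts stood lowest, near -5, followed by splicing, chromatin, mitochondrially encoded and acinar genes at -2.26 to -1.33, and respiratory chain and interferon genes highest, between 0.45 and 0.63.

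Ribosomal protein mRNAs and other short housekeeping mRNAs were relatively high in members. Ribosomal protein mRNAs made up 42.5%, 39.6% and 38.7% of the UMIs of control, photon and proton members, against 33.3%, 30.4% and 29.5% in the comparison class. Of 43 large subunit genes tested, 39 were higher in the members of each library, and of 32 small subunit genes 23 were, where 34.5% of all genes tested were higher in each library. None reached a 2-fold difference. Rpl24 had log2 ratios of 0.75, 0.71 and 0.75, and Fau, which encodes a fusion of a ubiquitin-like protein with ribosomal protein S30, 0.68, 0.64 and 0.63.

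The nuclear respiratory chain genes, which encode the subunits of the same complexes that the mt- genes serve, moved opposite to them. Of 33 genes, 32 were higher in the members of each library, with medians of 0.62, 0.63 and 0.61. Atp5e, the epsilon subunit of ATP synthase, had 1036, 977 and 774 CPM in members and 541, 530 and 414 CPM in the comparison class. Ndufa4, which belongs to cytochrome c oxidase despite its name, had log2 ratios of 0.84, 0.81 and 0.91. Thus transcripts of nuclear and of mitochondrial genes for the same complexes lay on opposite sides of 0 in all 3 libraries.

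Of 23 iron storage and antioxidant genes, 17 were higher in each library, against 34.5% of all genes tested. Ftl1, the ferritin light chain, had 2095, 1989 and 1517 CPM in members against 1103, 1039 and 783 CPM. Fth1, the heavy chain, had ratios of 0.63, 0.56 and 0.74, whereas Gclc, which encodes the catalytic subunit for glutathione synthesis, had -2.0, -1.70 and -1.54. The proteasome list gave the same mixture, with 17 of 26 genes higher in each library but Psmd1, a large regulatory subunit, at -2.73, -1.56 and -1.59. Translation factors were divided as well. Eif1 had ratios of 0.70, 0.62 and 0.58, Eef1a1 -0.08, 0.09 and 0.07, and Eif5b -2.61, -1.75 and -1.91, so that 11 of 26 were higher and 11 lower in each library, where 34.5% and 55.4% of all genes tested were. Members of one protein complex therefore stood on both sides of 0. The secretory, chaperone, glycolysis, snoRNA host, S phase, squamous and actin lists had medians between -0.37 and 0.22, with 1 to 13 genes of each higher in every library and 2 to 12 lower.

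The ratio followed the length of the mRNA. Length was taken as that of the canonical transcript in GENCODE vM39, which was found for 99.8% of the genes tested. The 336 genes with transcripts of 500 to 1000 bases had median ratios of 0.48, 0.46 and 0.50. Of them, 87.8% were higher in the members of each library, against 34.5% of all genes tested. The 974 genes of 1000 to 2000 bases had 0.27, 0.26 and 0.31, and the 1450 genes of 2000 to 4000 bases -0.45, -0.32 and -0.26. The 1259 genes of 4000 to 8000 bases had -1.38, -1.07 and -1.02, and the 313 genes over 8000 bases -2.07, -1.64 and -1.60. Of the latter, 234 were at least 2-fold lower in each library, against 25.9% of all genes tested. The medians thus declined at each of these steps in all 3 libraries. The 19 genes under 500 bases had 0.25, 0.25 and 0.36, below the next class.

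The order by length was also seen among genes of low and middle abundance, but not throughout among the most abundant genes. Among genes at 20 to 50 CPM, the 90 genes of 500 to 1000 bases had medians of 0.43, 0.38 and 0.47, and the 167 genes over 8000 bases -2.04, -1.62 and -1.56. Among genes above 500 CPM the range was narrower, with 0.50, 0.48 and 0.50 for 68 genes of 500 to 1000 bases and 0.27, 0.27 and 0.29 for 51 genes of 2000 to 4000 bases. In that class 12 genes of 4000 to 8000 bases had 0.30, 0.30 and 0.36, whereas the only 2 genes over 8000 bases had medians of -0.38, -0.29 and -0.21, so few abundant long mRNAs were available. Across 4351 genes, Spearman's rho between length and ratio was -0.66 in each library, and -0.61 after removing the rank of abundance. Coding length, number of exons and gene span gave -0.69, -0.54 and -0.59 in the control, and GC content 0.37. These properties are correlated with each other, genes are not independent replicates, and all ratios of a library share the same 2 sums.

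**Figure D3:**
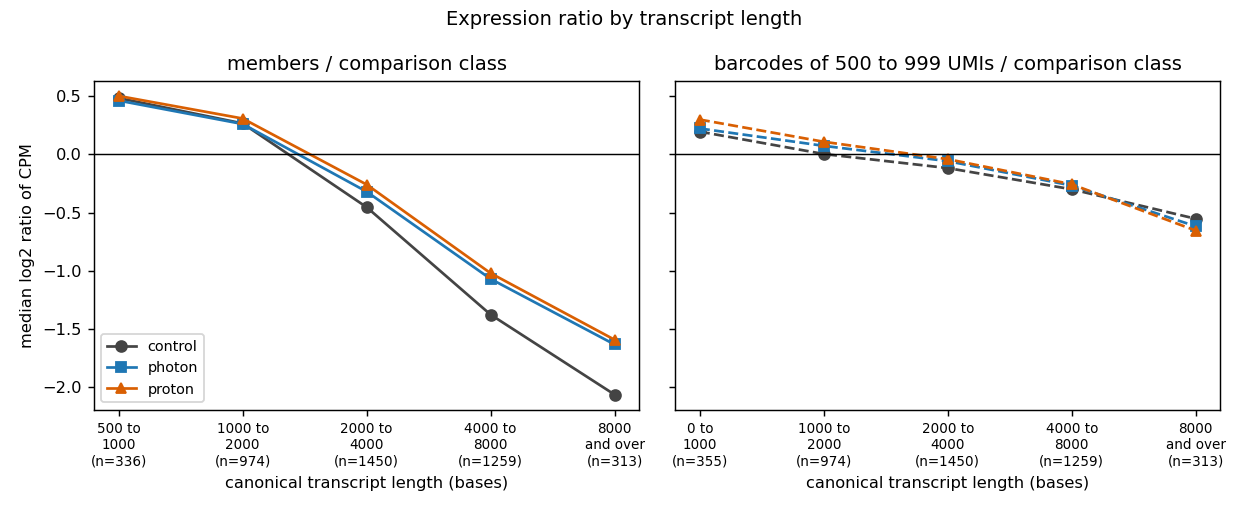
Median log2 ratio of CPM (vertical) by class of canonical transcript length in bases (horizontal, number of genes in brackets), for members over the comparison class (left) and for barcodes of 500 to 1000 UMIs over the comparison class (right), with one symbol per library. In the members the medians lay at 0.46 to 0.50 for transcripts of 500 to 1000 bases and at -2.07 to -1.60 for the longest. In the shallow barcodes they lay at 0.20 to 0.30 for all transcripts under 1000 bases, a wider class, and at -0.66 to -0.55 for the longest.

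The 4 genes that were at least 2-fold higher in members did not belong to the short mRNAs as a group, since their canonical transcripts had 604 to 6877 bases. Rpgrip1, known for its protein of the photoreceptor cilium, had 50.5, 31.8 and 35.2 CPM in members and 12.4, 8.59 and 5.82 CPM in the comparison class, with log2 ratios of 1.94, 1.77 and 2.41. Slc39a1, a zinc importer of the plasma membrane, had 133, 85.2 and 94.9 CPM against 43.0, 28.6 and 26.9 CPM. Tmem258, a small subunit of the oligosaccharyltransferase complex, had 151, 212 and 153 CPM against 70.4, 74.5 and 62.0 CPM. Abhd2, a lipid hydrolase, had 111, 89.5 and 70.4 CPM against 49.0, 40.8 and 34.2 CPM.

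In the GRCm39 annotation Slc39a1 lies at chr3:90155138-90160924 and Abhd2 at chr7:78922947-79015256, both on the plus strand and without an overlapping gene. Rpgrip1, at chr14:52341744-52401003 on the plus strand, overlaps Supt16 on the opposite strand, and Tmem258, at chr19:10181378-10185188 on the plus strand, overlaps Fen1 on the opposite strand, so their counts are less certain if strand was not used in counting. In barcodes with 500 to 1000 UMIs, Tmem258 stood at 170, 195 and 154 CPM, close to its level in members, while Rpgrip1 stood at 3.42, 3.23 and 3.73 CPM and Slc39a1 at 22.4, 34.7 and 21.3 CPM, at or below the comparison class except for Slc39a1 in the photon library. Thus Rpgrip1, Slc39a1 and Abhd2, but not Tmem258, were also higher in members than in shallow barcodes. The other genes among the 10 highest were Tmprss13, Lrrc8a, Serf1, Atp5e, Ftl1 and Uqcc2, with ratios from 0.81 to 1.88.

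Salivary epithelial markers were present throughout. Krt14, a keratin of basal duct cells, stood at 7025, 7339 and 7266 CPM in members and at 5167, 4930 and 5062 CPM in the comparison class. Its basal partner Krt5 went the other way, with 1438, 1732 and 1541 CPM against 2104, 2122 and 1878 CPM. Of the luminal keratins, Krt18 had log2 ratios of 0.80, 0.73 and 0.73 and Krt7 0.04, 0.12 and 0.16. Epcam, an adhesion protein of epithelial cells, had 687, 672 and 704 CPM in members and 847, 765 and 775 CPM in the comparison class. By list, 12 of 15 simple epithelial and luminal genes were higher in the members of each library, against 34.5% of all genes tested, whereas 14 of 17 basal keratin and basement membrane genes were lower, against 55.4%. The lower ones included Itga6, an integrin subunit that binds laminin, at -2.43, -1.91 and -1.82, and the linker Dst, whose canonical transcript has 23201 bases, at -2.0, -1.72 and -1.63. Squamous genes were divided, with the short Sprr2f at 0.41, 0.41 and 0.27 and the desmosomal Dsg3 at -2.29, -1.94 and -2.04.

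Erythrocyte and fibroblast markers were at or near 0 in the members, and leukocyte and platelet lists rested mostly on 1 gene each. All 7 erythrocyte genes found in the gene table, among them 4 hemoglobin genes, had 0 UMIs in the members of each library. Of 8 fibroblast genes, 6 had 0 UMIs in all members, and their sum was at most 0.380 CPM. Of 15 macrophage and leukocyte genes, 10 had 0 UMIs in all members, Ptprc included, and the sum of 22.6, 39.4 and 27.5 CPM, mostly Cd68, was near that of the comparison class (21.7, 40.8 and 34.0 CPM). Endothelial genes summed to 1.33 to 2.13 CPM. The sum of 7 platelet genes was 53.9, 58.9 and 63.4 CPM in members against 59.4, 105 and 81.6 CPM, nearly all from Ppbp, with Gp9, Gp1bb, Gp5 and Treml1 at 0. Cycling markers summed to 488, 299 and 366 CPM in members and to 486, 258 and 282 CPM in the comparison class. Of the epithelial lists, basal duct markers summed to 12677, 13869 and 13764 CPM in members against 10651, 11252 and 11194 CPM, a gap that was mostly that of Krt14. Luminal duct markers summed to 5189, 4483 and 4887 against 3720, 3303 and 3703 CPM. Squamous markers summed to 6390, 6668 and 5830 against 5990, 6105 and 5600 CPM, but Ly6d alone, a surface protein of squamous epithelium, had 3904, 4538 and 4249 against 3304, 3384 and 3345 CPM, and the other squamous markers together were lower in members. Myoepithelial markers summed to 488, 352 and 336 CPM in members, nearly all from Lgals7, an epithelial galectin, with Myh11 and Oxtr at 0. Pro-acinar markers were lower in members, with 107, 95.1 and 86.0 CPM against 293, 213 and 197 CPM.

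The stem and progenitor markers that the study names for mSGOs were lower in members in each of the 3 libraries, 7 of 7 against 55.4% of all genes tested, and 3 of 7 were at least 2-fold lower in each, against 25.9%. Itgb1, an integrin subunit, had 85.2, 140 and 140 CPM against 374, 456 and 379 CPM. Trp63, the transcription factor of basal epithelium, had 24.9, 31.9 and 33.4 CPM against 108, 94.0 and 94.0 CPM. Sox9, a transcription factor of duct progenitors, had 50.9, 72.8 and 89.4 CPM against 113, 201 and 198 CPM. Cd24a had ratios of -0.67, -0.49 and -0.54. These markers, too, were not matched to other genes by transcript length.

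Of the Notch pathway, in which a ligand on one cell activates a receptor on its neighbor, 7 of 24 genes were measured deeply enough. The receptor Notch1 was lower in members, with ratios of -0.79, -0.90 and -0.97, and so were the protease Adam10 (-1.58, -1.31 and -1.16) and the DNA-binding partner Rbpj (-1.96, -0.81 and -1.14). The ligand Jag1 was higher, with 114, 116 and 128 CPM against 65.9, 81.8 and 82.9 CPM, although it turned to -0.16 on average among barcodes of 2000 to 4000 UMIs. The target gene Hes1 lay at 0.12, -0.13 and 0.24. Of 19 immediate early genes and of 19 p53 targets, 14 each were lower in every library, against 55.4% of all genes tested. Jun, a subunit of AP-1, had -2.0, -1.55 and -1.61, and Cdkn1a, the cell cycle inhibitor p21, -1.81, -1.47 and -1.61. The chaperone Hsp90ab1 was low as well, at -1.77, -1.12 and -1.27, while the small heat shock protein Hspb1 had 0.36, 0.36 and 0.28.

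Members were much more alike than the barcodes of the comparison class. Each barcode was thinned to 2000 UMIs, so that depth was equal, and the variance of a gene's UMIs between barcodes was divided by its mean. A value of 1 is what counting alone gives when all barcodes draw from the same mixture. Over genes with a mean of at least 0.5 UMIs in both classes, the median was 1.04 in members of each library, against 1.28, 1.23 and 1.25 in the comparison class. Of 343 genes measured in all 3 libraries, 295 (86.0%) had the lower value in members in each library. Values above 1.5 in each library were reached by 8 genes in members and 107 in the comparison class. The rule truncates Malat1 and limits mt- shares, and 1 of the 8, mt-Co1, is of that kind.

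Squamous genes had some of the widest gaps. Sprr2f, which encodes a small proline-rich protein of the cornified envelope, had variance to mean ratios of 3.97, 2.50 and 2.78 in members and 58.8, 46.1 and 49.2 in the comparison class. It was detected in 99.3%, 99.8% and 98.9% of thinned members but in 63.9%, 75.1% and 65.6% of the comparison class, although its mean there was only somewhat lower (5.83, 5.13 and 4.27 against 7.97, 8.39 and 6.43 UMIs). Krt15, a basal keratin, had ratios of 1.32, 1.09 and 1.27 in members and 5.92, 6.53 and 6.49 in the comparison class, and Krt14 had 1.30, 1.37 and 1.25 against 5.63, 4.05 and 4.11. The luminal keratins Krt18 and Krt7 differed less, with 1.03 to 1.18 in members and 1.35 to 1.89 in the comparison class. The other genes above 1.5 in members were Fabp5, S100a6, Sprr1a, Hspb1, Gm42418 and AY036118, the last pair being models that capture ribosomal RNA.

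**Figure D4:**
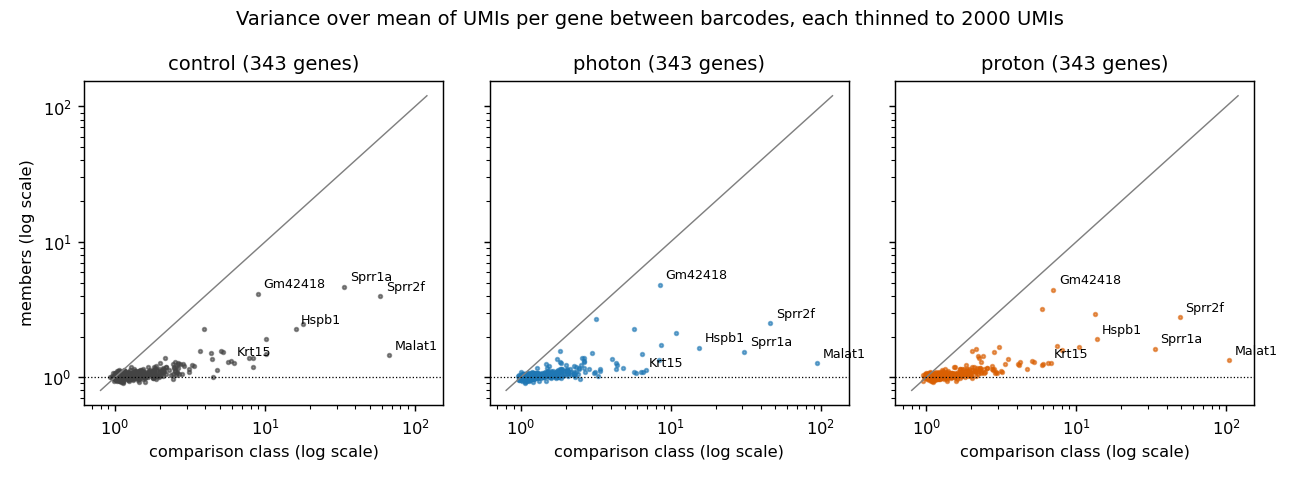
Variance over mean of UMIs between barcodes thinned to 2000 UMIs, for 343 genes, in the comparison class (horizontal, log scale) and in members (vertical, log scale), one panel per library, with the line of equality and a dotted line at 1. Most genes lie near 1 in members and spread to the right, up to 58.8 for Sprr2f in the control; Malat1, at the far right, was restricted by the rule.

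The number of genes and the ribosomal share gave the same picture. At 2000 UMIs, members had a median of 721, 769 and 783 genes with an SD between barcodes of 38.7, 35.0 and 37.2, and the comparison class had 826, 857 and 843.5 genes with an SD of 118, 108 and 110. The ribosomal protein share of single members had an SD of 2.30, 2.09 and 2.22 percentage points, against 7.72, 7.16 and 7.15 points. Because members were also cut to a narrow range of Malat1, which ranged from 1% of UMIs to above 31.6% in single comparison barcodes, part of a smaller spread is built into the rule, and that part was not tested.

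Clustering of all 7804 RNA-rich barcodes, from which Malat1, the nuclear retained list and mt- genes had been removed, placed 4459 members (98.9%) in a single cluster with 39 barcodes of the comparison class and 11 in between. The comparison class fell into 3 other clusters, led by Tpm1 and Ptprz1, by Adm and Txnip, and by Sprr1a and Spink5. At a finer setting the members split into a cluster of 3011 members, of which 55 were control, 1409 photon and 1547 proton barcodes, and one of 1448 members, with 968, 325 and 155. The clusters rest on the same counts, and leaving out these genes does not make them independent of the rule. A group of 24 members (2 control, 7 photon and 15 proton) stood apart under both settings. Its sum was led by Pclaf and Aldh7a1, which rested on only 9 and 11 UMIs, and by the intermediate filament gene Vim, with 26 UMIs (233 CPM against 45.3 CPM in the other members) and 102 UMIs of Lgals1, which encodes a galectin (914 against 178 CPM). It had a median mt- share of 1.95% and held none of the listed cell type markers among its 10 leading genes, so it was left without a name.

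Barcodes with 500 to 1000 UMIs, which lie below the limit of the rule, shared the low Malat1 share but not the profile of the members. Malat1 made up 0.332%, 0.346% and 0.204% of their UMIs, more than in members, and mt- genes 0.235%, 0.219% and 0.198%, less than in members. Neat1 stood at 47.2, 50.5 and 28.5 CPM in them and Rbm25 at 45.7, 50.3 and 45.7 CPM, above the members and below the comparison class. The 313 genes over 8000 bases had median ratios of -0.55, -0.62 and -0.66 for shallow barcodes over the comparison class, against -2.07, -1.64 and -1.60 for members. Across 3929 to 4156 genes, the correlation of log2 CPM was 0.97, 0.97 and 0.96 between shallow barcodes and the comparison class, 0.90, 0.95 and 0.95 between shallow barcodes and members, and 0.84, 0.88 and 0.88 between members and the comparison class. These correlations are across genes and share sums, and they describe only the order of likeness. Thinned to 500 UMIs, shallow barcodes were as alike as members, with median variance to mean ratios of 1.03, 1.02 and 1.02 against 1.02 in each library of members.

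Within the members, irradiation was examined by setting the photon and proton sums against the control sum. Both comparisons share the control library. Genes needed 20 CPM only in the highest of the 3 libraries, so a gene could pass through the group where it was high. Of 3734 genes, 48 (1.29%) were at least 2-fold higher and 3 (0.0803%) at least 2-fold lower after both kinds of radiation. The median gene had log2 ratios of 0.12 for photons and 0.18 for protons, and with these shifts removed the counts were 21 higher and 10 lower. Control members were deeper than irradiated ones (above), and the counts moved with the limit: 27 higher and 3 lower at 3000 UMIs or more, 90 and 8 at 2000 to 4000 UMIs, and 358 and 12 at 1000 UMIs or more.

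Some of these genes were higher in both classes of barcodes. Isg15, an interferon-induced ubiquitin-like protein, had 31.8 CPM in control, 70.9 in photon and 84.6 in proton members, and 12.4, 49.0 and 59.7 CPM in the comparison class. Serpine2, a protease inhibitor, had 37.5, 90.3 and 108 CPM in members and 50.0, 127 and 134 CPM in the comparison class. Psca, a membrane-anchored antigen of epithelia, had 163, 494 and 374 CPM in members and 50.8, 389 and 197 CPM in the comparison class. These were the 3 genes that reached 2-fold in both classes, of 48 in members and 16 (0.33% of 4843 tested) in the comparison class. The lower genes were Adm, a hypoxia-responsive peptide hormone, Ankrd37, another hypoxia-responsive gene, and the water channel Aqp5 of acinar cells. Aqp5 had 30.1, 11.4 and 12.3 CPM in members and 34.9, 8.46 and 7.21 CPM in the comparison class, whereas Adm had 49.9, 20.5 and 22.0 CPM against 80.7, 48.7 and 77.5 CPM. Among the genes with the widest ratios in members were also Cxcl3, a chemokine that attracts neutrophils (13.2, 43.5 and 46.4 CPM in members), Mmp14, a membrane-bound metalloprotease (5.65, 20.2 and 19.2 CPM), and Krtdap, a protein of differentiating keratinocytes (756, 393 and 263 CPM). Mmp14 reached the minimum of 20 CPM only in photon members, and Cxcl3 only in irradiated members.

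Another part showed the difference in the members but little difference in the comparison class. For 21 of the 48 genes, both log2 ratios in the comparison class lay between -0.5 and 0.5. Their canonical transcripts had a median length of 4711 bases, against 2548.5 for all genes tested. Over all genes tested in the comparison class, the ratios had an SD of 0.29 after photons and 0.30 after protons, so small ratios were common. The share of all genes inside these limits was not counted, so whether 21 of 48 is many or few is not known. Golga4, which encodes a long coiled-coil protein of the Golgi, had 13.6, 34.0 and 30.2 CPM in members and 131, 127 and 151 CPM in the comparison class. Luzp1, a leucine zipper protein, had 22.6, 58.0 and 52.8 CPM in members and 206, 230 and 265 CPM in the comparison class. In members, genes over 8000 bases had median ratios of 0.37 for photons and 0.45 for protons, and genes under 1000 bases 0.02 and -0.03. In the comparison class these medians were 0.08 and 0.08 for long and 0.01 and -0.06 for short transcripts. The control members thus stood farthest from the comparison class in long transcripts, and the irradiated members less far. The medians over 8000 bases were 0.23 and 0.36 with at least 3000 UMIs, 0.82 and 0.76 with at least 1000, and 0.25 and 0.27 with median-of-ratios scaling.

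**Figure D5:**
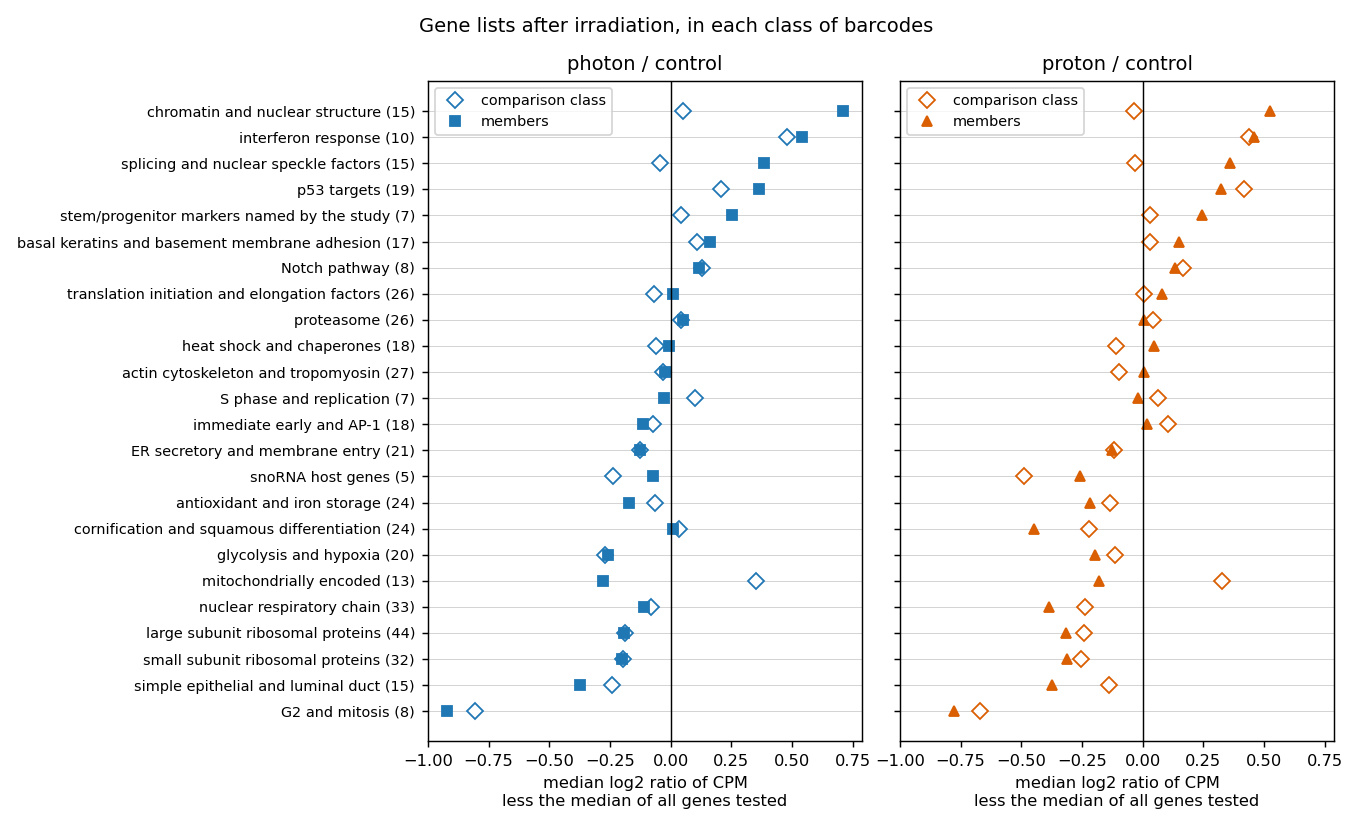
Median log2 ratio of CPM after photons (left) and protons (right) over control, less the median of all genes tested (horizontal), for gene lists with at least 3 genes tested (vertical, number in brackets), in members (filled) and in the comparison class (open). Chromatin and splicing lists lie at 0.36 to 0.71 in members and near 0 in the comparison class, mt- genes lie on opposite sides of 0 after this subtraction, and p53, interferon and mitotic lists lie on the same side in both classes.

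The lists linked to radiation stood on the same side in both classes. Of 19 p53 targets measured in members, 16 were higher than in control after photons and 18 after protons, where 67.1% and 73.1% of all genes were. In the comparison class the same numbers, 16 and 18, were higher, where 59.9% and 57.7% of all genes were. Mdm2, which encodes the ubiquitin ligase of p53, had 17.3, 40.1 and 45.0 CPM in members, and Ccng1, a cyclin induced by p53, 67.3, 149 and 159 CPM. In the comparison class Ccng1 had 114, 205 and 220 CPM. Of 10 interferon response genes, 10 and 9 were higher in members, against the same 67.1% and 73.1% of all genes. In the comparison class 9 were higher after each, against 59.9% and 57.7%. Bst2, a membrane protein that tethers viruses, had 37.3, 76.2 and 75.9 CPM, and the transcription factor Irf7 9.61, 21.5 and 24.7 CPM. Of 8 genes of G2 and mitosis, 7 were lower in members after each kind of radiation. Only 1 was higher, where 67.1% and 73.1% of all genes were. In the comparison class 0 of the 8 were higher, where 59.9% and 57.7% of all genes were. Cenpa, a centromere histone, had 107, 60.3 and 75.4 CPM in members. Cks2, a subunit of mitotic kinases, had 142, 92.2 and 118 CPM.

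Basal and Notch genes were compared in the same way. Krt15 had 552, 1316 and 1313 CPM in members and 539, 1068 and 993 CPM in the comparison class. Other basal keratins changed less. Krt14 had 7025, 7339 and 7266 CPM against 5167, 4930 and 5062 CPM, and Krt5 1438, 1732 and 1541 against 2104, 2122 and 1878 CPM. Of 17 basal keratin and basement membrane genes, 15 and 16 were higher in members, against 67.1% and 73.1% of all genes. In the comparison class 15 and 11 were, against 59.9% and 57.7%. Notch1 had 101, 141 and 156 CPM in members and 176, 265 and 307 CPM in the comparison class, and Hes1 60.7, 99.6 and 129 CPM against 55.6, 109 and 110 CPM. Jag1 had log2 ratios to control of 0.03 (interval -0.14 to 0.19) and 0.17 (0.02 to 0.33) in members, and of 0.31 (0.13 to 0.49) and 0.33 (0.15 to 0.51) in the comparison class. Jag2 had -0.17 and 0.10 in members and 0.00 and 0.09 in the comparison class. At 1000 UMIs or more, Jag1 had -0.62 and -0.28. Of the 7 stem and progenitor genes, 7 had ratios above 0 in members after both treatments, where 67.1% and 73.1% of all genes had, and 5 in the comparison class after each, where 59.9% and 57.7% had. Itgb1 had 0.71 and 0.71 in members and Sox9 0.51 and 0.80, whereas Cd44, at 0.04 after photons, lay below the median of all genes and its interval, -0.18 to 0.27, included 0.

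A few genes stood out in the proton library in both classes. Chd9, which encodes a chromatin remodeler, had 45.4, 120 and 445 CPM in members and 98.2, 179 and 448 CPM in the comparison class. Nme2, a nucleoside diphosphate kinase, had 1.88, 5.32 and 42.1 CPM in members and 3.14, 6.22 and 30.6 CPM in the comparison class, and its counts are uncertain because the annotation has an overlapping gene on the same strand. The non-coding gene Gm26510 had 6.59, 18.8 and 52.1 CPM against 8.24, 16.7 and 33.8 CPM. In members, Nme2 and Gm26510 reached the minimum of 20 CPM only in the proton library. With 1 library per treatment, a difference of the proton library and one of proton irradiation cannot be told apart.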

How the data were processed

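Single-cell suspensions were profiled with 10x Genomics, and the authors deposited filtered matrices of raw UMI counts per gene and barcode, made with Cell Ranger 5 per the labels. File headers name versions 3.0.1 and 7.0.0. The labels name mm10 and the methods GRCm39, so coordinates are those of the annotation used here. The strand setting of counting is not given in the sources used here. Totals were 16908611, 30957157 and 29509628 UMIs in 7151, 19189 and 18635 barcodes (control, photon and proton).

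UMIs were summed per class and library and divided by the class total to give CPM. The 5% mt- limit was also applied to the comparison class. Genes needed at least 60 UMIs over both classes and 20 CPM in the higher class of each library (for irradiation, 60 UMIs over the 3 libraries and 20 CPM in the highest), and log2 ratios used a pseudocount of 1 CPM. Called genes differed at least 2-fold in the same direction in all 3 libraries, or after both treatments. Ratio intervals are conditional exact binomial and share intervals Clopper-Pearson, at 95%. PCR duplicates are collapsed by UMIs, and intervals cover counting error only. The scripts were tested on simulated data. Doublets were scored with Scrublet (expected rate 0.8% per 1000 barcodes), with the automatic threshold for the proton library and the highest scores for control and photon, and were kept.

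Transcript lengths came from GENCODE vM39 by Ensembl ID. Python 3.11.15, numpy 2.4.6, scipy 1.17.1, pandas 2.3.3, scanpy 1.11.5 and leidenalg 0.10.2 were used. Clusters used resolutions of 0.4 and 0.8.

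The members, the 26 gene lists and the marker lists were chosen with earlier results of these data known. Named genes were Malat1 and mt- genes, the 10 highest and 10 lowest by the ratio nearest 0, the 5 highest and 5 lowest by treatment, in each list the 3 most abundant and the 2 with the largest ratios, and the Notch and stem genes that the study names. Genes named outside this rule, among them Golga4, Luzp1, Serpine2, Psca, Nme2, Mdm2, Ccng1, Isg15, Bst2, Irf7, Krt15 and the genes that led clusters or varied most between barcodes, were chosen after their values were seen.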

Additional observations from a re-analysis of the deposited data

Results flagged for a closer look

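For the 3 single genes and 3 gene lists given here, members and comparison class lay on different sides of control. The lists did so once the median of all genes was subtracted. These are not all such cases. After photons, the snoRNA host gene Snhg6 had 0.25 in members and -0.29 in the comparison class. After protons, heat shock genes had 0.05 and -0.11, less the median of all genes. With 1 library per group, these differences were not tested. Values are log2 ratios to control, after photons and then after protons.

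Splicing and nuclear speckle factors, less the median of all genes, stood at 0.383 and 0.361 in members and at -0.0429 and -0.0297 in the comparison class. Without the subtraction they stood at 0.50 and 0.54, and at 0.01 and 0.01, on the same side of control. Chromatin and nuclear structure genes had 0.526 after protons in members and -0.0344 in the comparison class, and 0.71 and 0.01 without the subtraction. Mitochondrially encoded genes had -0.277 and -0.180 in members and 0.353 and 0.326 in the comparison class. Without the subtraction the members stood at -0.16 after photons and at 0.0020 after protons, so the proton members were not below control.

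Of single genes, on the CPM scale, Klf6, an immediate early transcription factor, had 0.352 and 0.464 in members and -0.171 and -0.0866 in the comparison class. Trp63 had 0.349 and 0.412 against -0.205 and -0.204, and Hsp90ab1 0.548 and 0.427 against -0.0969 and -0.0740.

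Control members were deeper than irradiated members, and the values moved with the UMI limit. At 3000 UMIs or more, members had 0.05 and 0.32 for Klf6, 0.04 and 0.28 for Trp63, 0.32 and 0.35 for Hsp90ab1, 0.28 and 0.42 for splicing factors and 0.05 and -0.04 for mt- genes, the lists without the subtraction. At 1000 UMIs or more they had 0.82 and 0.86 for Klf6, 0.45 and 0.58 for Trp63, 1.00 and 0.82 for Hsp90ab1, 0.90 and 0.84 for splicing factors and -0.68 and -0.45 for mt- genes. Chromatin genes after protons had 0.61 and 1.09 at these 2 limits.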

How the results depend on the processing

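With 1 library a group, no difference between treatments has a replicate check. The contrast of members with the comparison class was repeated in 3 libraries, which differ in treatment, but it rests on the counts that the rule used. The share of members depended on the limits. It was 63.3%, 80.6% and 83.3% (control, photon and proton) at 2000 to 4000 UMIs, 60.3%, 83.0% and 83.1% at 1000 UMIs or more, 40.6% (photon) and 45.4% (proton) at 3000 UMIs or more, 48.2%, 29.7% and 47.1% with a Malat1 share under 0.1%, and 54.7% in the photon library without doublets. At 2500 genes or more it was 2.51%, 0% and 1.37%, and gene values could not be given, as no photon member remained.

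Genes at least 2-fold higher in members numbered 42 with median-of-ratios scaling, 22 at 2000 to 4000 UMIs, 1 at 1000 UMIs or more, 8 without the control library and 156 at a fold of 1.5. Genes lower in members numbered 371 at 2000 to 4000 UMIs, 442 at 1000 UMIs or more and 1963 with a minimum of 10 UMIs and no CPM minimum. After irradiation, 17 genes were higher with a pseudocount of 5 CPM and 27 at 3000 UMIs or more. The counts higher and lower were 21 and 10 with median-of-ratios scaling, 90 and 8 at 2000 to 4000 UMIs, 358 and 12 at 1000 UMIs or more, 200 and 20 with these lower minimums, and 348 and 35 at a fold of 1.5.

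Among values larger than their spread between libraries or their counting error, 18 changed sign. Values closer to 0 that changed sign are not listed. With median-of-ratios scaling these were snoRNA host genes (0.10), B2m (0.19), Slbp (0.0045), Perp (0.017) and Junb (0.0081) in members, actin genes after photons (-0.024) and Jag1 after protons (-0.0085). At 2000 to 4000 UMIs they were Jag1 (-0.16) and Krt6a (0.011) in members, and at 3000 UMIs or more mt- genes after photons (0.048). At 1000 UMIs or more they were snoRNA host genes (0.0096) and Lars2 (0.34) in members, acinar genes after photons (0.16) and Jag1 after protons (-0.28). With the lower minimums they were interferon (-0.013) and mitotic genes (-0.61) in members and acinar genes after photons (0.51) and protons (0.73). The cause was not tested. No paired analysis of the treatments was possible because each group has 1 library. Members and comparison class were compared within each library, without a test.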
